A study of Homo sapiens with 6 samples.

Results

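The genes described here are 10 interferon-induced genes in AGS cells, a human gastric adenocarcinoma cell line. ISG15, UBA7, UBE2L6, HERC5 and HERC6 belong to the ISG15 conjugation system, and IFI44, IFI44L, IFI6, IFI27 and EPSTI1 are genes of other kinds that interferon also induces. They were chosen by name, with earlier results of these data known. Their probes were found through the RefSeq accession printed for each probe. Of the 10 genes, 9 had a probe on the array, among 22438 genes with a matched probe. HERC6 had a pair of probes and the others 1 each. No probe was matched to IFI27, so it has no value here.

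Both groups were AGS cells grown in medium with fetal bovine serum and transfected with siRNA for 48 h. The si-Control group received a nontargeting siRNA, and the si-C1GALT1-3 group received an siRNA against C1GALT1, the enzyme that adds galactose to form the core 1 structure of mucin-type O-glycans. There were 3 samples in each group, with a one-colour Agilent array for each. Arrays of the same replicate number shared a slide. A single siRNA sequence was used against C1GALT1, and untransfected cells are not analysed here. The labels do not say whether replicates were separate cultures, so p-values measure only the spread between these samples.

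ISG15 is a small protein built of ubiquitin-like domains, which cells make and attach to other proteins after exposure to interferon. UBA7 activates it, UBE2L6 carries it, and HERC5 transfers it to the target protein, while USP18 takes it off again. Type I interferon acts on these genes through transcription factors such as STAT2 and IRF9, which act at a promoter sequence called the interferon-stimulated response element. IFI44 and its relative IFI44L are cytoplasmic proteins, IFI6 and IFI27 are small hydrophobic proteins of one family, and EPSTI1 takes its name from epithelial and stromal interaction.

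The promoters are shown because the members that rose differed in whether they hold the core of that element. RefSeq promoter windows of GRCh38.p14, from 250 bases before to 50 bases after a gene's start, were given for 9 of the 10 genes, all except UBA7. The core was searched as GAAANNGAAA on both strands, where N is any base. It lay in the windows of 7 of these 9 genes, namely ISG15, HERC5, IFI44, IFI44L, IFI6, IFI27 and EPSTI1, and in 3.57% of all 35116 windows. It was not in the windows of UBE2L6 or HERC6. The core of the gamma-activated site, TTCNNNGAA, lay in the windows of 2 of the 9 genes, IFI27 and EPSTI1, and in 7.66% of all windows. A match to these letters is a description of the sequence only.

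The 170 bases before the start are given for 6 genes, 5′ to 3′ on the strand of the gene, with every match to GAAANNGAAA or its reverse complement in capitals. Where RefSeq gave a gene several starts, the most upstream was used.
ISG15 (chr1:1013327-1013496, plus strand): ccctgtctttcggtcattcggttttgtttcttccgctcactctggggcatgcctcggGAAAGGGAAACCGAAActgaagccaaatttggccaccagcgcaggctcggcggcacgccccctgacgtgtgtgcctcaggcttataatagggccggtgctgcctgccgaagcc
IFI44L (chr1:78620278-78620447, plus strand): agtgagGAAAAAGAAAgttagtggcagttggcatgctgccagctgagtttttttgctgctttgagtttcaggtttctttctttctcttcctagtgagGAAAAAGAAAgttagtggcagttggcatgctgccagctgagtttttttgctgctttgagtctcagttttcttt
IFI44 (chr1:78649619-78649788, plus strand): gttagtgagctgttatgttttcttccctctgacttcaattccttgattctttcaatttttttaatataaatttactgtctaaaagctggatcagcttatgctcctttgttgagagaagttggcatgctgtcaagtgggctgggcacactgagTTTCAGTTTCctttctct
IFI6 (chr1:27672193-27672362, minus strand): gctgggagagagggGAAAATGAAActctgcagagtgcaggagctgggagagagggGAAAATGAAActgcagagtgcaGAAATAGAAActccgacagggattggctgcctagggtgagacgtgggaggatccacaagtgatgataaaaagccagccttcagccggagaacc
EPSTI1 (chr13:42992242-42992411, minus strand): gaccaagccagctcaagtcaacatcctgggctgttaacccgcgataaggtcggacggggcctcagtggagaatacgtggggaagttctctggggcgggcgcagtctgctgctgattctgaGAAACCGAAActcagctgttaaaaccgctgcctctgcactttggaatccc
UBE2L6 (chr11:57567936-57568105, minus strand): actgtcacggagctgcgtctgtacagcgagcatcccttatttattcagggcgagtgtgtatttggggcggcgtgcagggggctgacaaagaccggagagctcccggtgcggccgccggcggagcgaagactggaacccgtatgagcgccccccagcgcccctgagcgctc
The matches in ISG15 overlap each other, with the second beginning at position -107, counted from the base before the start as -1. IFI44L holds the same 10 letters in both of its matches, at positions -164 and -73. IFI6 holds 3 matches, and IFI44 holds 1 on the opposite strand, at position -18. EPSTI1 holds 1 match, at position -50, and UBE2L6 holds none in its windows.

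The authors deposited a processed intensity for every spot. Its log2 values were quantile normalized here across all 6 arrays. Of 60901 gene spots, 66.2% to 72.7% per array were well above background, and 0 were saturated. Pairwise correlations between arrays lay between 0.97 and 0.988. A probe was called at p under 0.01 and at least 2-fold by limma. The study names limma in its methods and gives these limits with its volcano plot. Benjamini-Hochberg adjustment was made over all 58195 probes tested. At these limits 1.65% of all probes rose and 0.991% fell. The normalized log2 signal of C1GALT1 was 12.22, 13.03 and 12.62 in si-Control and 11.76, 11.98 and 11.13 in si-C1GALT1-3 replicates 1, 2 and 3. All 3 si-C1GALT1-3 arrays were below the lowest si-Control array, with a log2 fold change of -1.0 ± 0.31 (SE, n = 3 against 3, adjusted p = 0.265), which missed the p threshold of the call.

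On si-Control replicate 2 a central area of spots was low in signal, and a rectangular block was drawn over it. The block held 15.9% of the gene spots. The median log2 deviation from si-Control replicates 1 and 3 was -2.19 inside and -0.06 outside, and 36.5% of spots inside were well above background against 71.9% outside. The spots of the block were set to missing on that array. Low signal ran past its edge, with a median deviation of -1.13 around 1 of the HERC6 probes, which lies outside it. The probes of IFI44 and EPSTI1 lie in the block, so their si-Control means rest on 2 arrays, and each is also given with the spot kept.

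**Figure D1:**
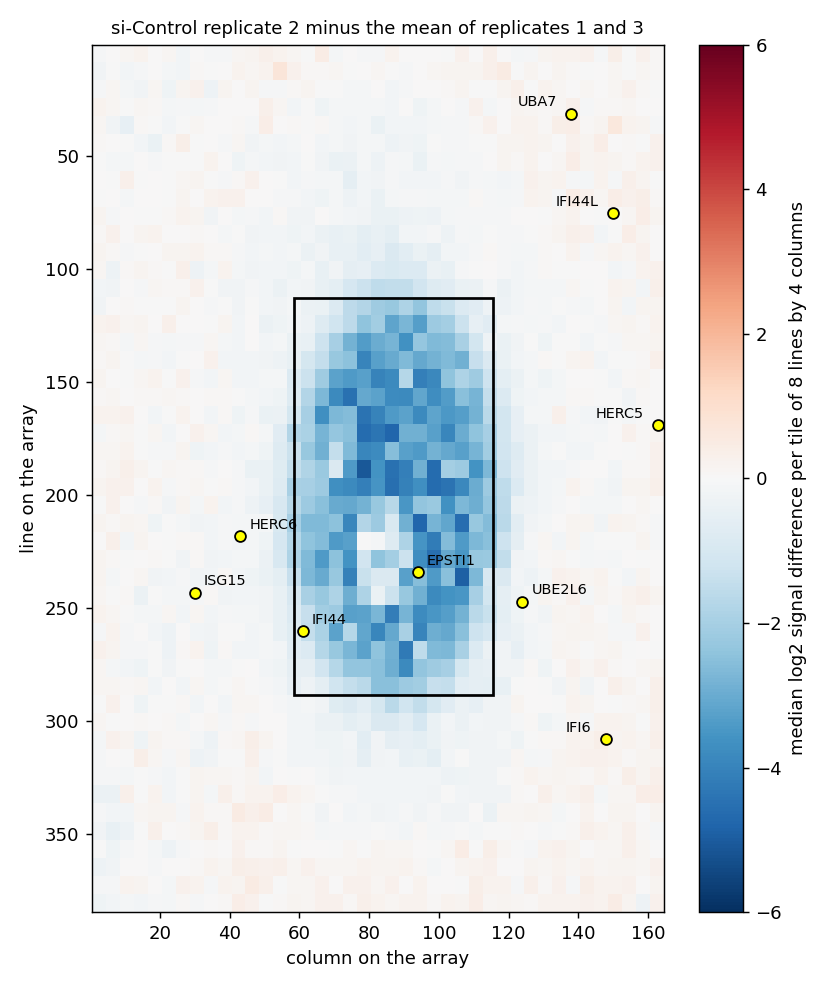
Map of si-Control replicate 2 by line and column of the array, coloured by the median log2 deviation from si-Control replicates 1 and 3, with the masked block outlined and the probes of the members marked, with the brighter of both HERC6 probes. IFI44 and EPSTI1 lie inside the block, where the median deviation was -2.19, and the other marked probes lie outside it.

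In the ISG15 system, UBE2L6 rose about 3-fold, while ISG15 and UBA7 had group differences under 2-fold, with every si-C1GALT1-3 array above every si-Control array. HERC5 was dim with overlapping groups, and neither probe of HERC6 was well above background. In these bulk samples, more cells that express a gene and more RNA per cell cannot be told apart.

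ISG15, the ubiquitin-like modifier itself, had processed intensities of 53143, 38122 and 31504 in si-Control and 70103, 56118 and 58253 in si-C1GALT1-3. Its normalized log2 signals were 15.25, 15.26 and 15.30 in si-Control and 15.87, 15.73 and 16.04 in si-C1GALT1-3. All 3 si-C1GALT1-3 arrays were above all 3 si-Control arrays, and ISG15 was bright in both groups. The log2 means were 15.27 ± 0.03 and 15.88 ± 0.16 (SD, n = 3 each). Its log2 fold change was 0.61 ± 0.14 (SE, adjusted p = 0.167), a 1.53-fold difference that met the p limit of the call and was under the 2-fold limit. Of all probes tested, 10.67% had a larger rise. Under the 18 alternatives the log2 fold change of ISG15 lay between 0.48 and 0.68. Its unadjusted p by limma reached 0.0947 without normalization between arrays, so the p limit was not met in every setting.

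UBA7, the E1 enzyme that activates ISG15, had processed intensities of 248, 277 and 148 in si-Control and 577, 580 and 238 in si-C1GALT1-3. After normalization the log2 signals were 7.56, 8.13 and 7.73 against 8.94, 8.94 and 8.23. The groups did not overlap, though si-C1GALT1-3 replicate 3 lay close to si-Control replicate 2. For UBA7 the log2 fold change was 0.90 ± 0.27 (SE, adjusted p = 0.253), or 1.86-fold, which passed neither limit. Without si-C1GALT1-3 replicate 3 it was 1.13, which passed both. On the slides of replicates 1, 2 and 3 the difference was 1.38, 0.81 and 0.50.

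UBE2L6, the E2 enzyme that carries ISG15, had processed intensities of 3549, 2229 and 1271 in si-Control and 9903, 8226 and 4344 in si-C1GALT1-3. On the normalized log2 scale they were 11.50, 11.22 and 10.70 against 13.09, 12.87 and 12.32. Replicate 3 was the lowest in both groups, and the groups did not overlap. This gave a log2 fold change of 1.62 ± 0.30 (SE, 95% interval 0.88 to 2.35, adjusted p = 0.13), or 3.07-fold. The differences within the slides were close to one another, 1.59, 1.65 and 1.62. UBE2L6 rose under all 18 alternative settings, with log2 fold changes between 1.39 and 1.83.

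HERC5, the main human ISG15 ligase, had processed intensities of 129, 131 and 25 in si-Control and 125, 122 and 100 in si-C1GALT1-3. After normalization the log2 signals were 6.60, 7.02 and 5.23 against 6.73, 6.72 and 6.98. The groups overlapped, and si-Control replicate 3 was the lowest array and the only one of the 6 on which HERC5 was not well above background. HERC5 had a log2 fold change of 0.52 ± 0.47 (SE, 95% interval -0.64 to 1.69, adjusted p = 0.68). Without si-Control replicate 3 it was -0.0011. The interval includes both a fall and a 2-fold rise. HERC6, a relative of HERC5, has 2 probes, and neither was well above background on any of the 6 arrays, so no fold is given.

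Among the IFI44-type genes, IFI44L rose about 5-fold and IFI44 about 3-fold. EPSTI1 rose 2.01-fold, at the edge of the call, and IFI6 was 1.71-fold higher, under the 2-fold limit.

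IFI44L had processed intensities of 284, 166 and 166 in si-Control and 1429, 1110 and 789 in si-C1GALT1-3. On the normalized log2 scale they were 7.75, 7.36 and 7.90 against 10.23, 9.87 and 9.92. The lowest si-C1GALT1-3 array was far above the highest si-Control array. IFI44L had a log2 fold change of 2.34 ± 0.20 (SE, 95% interval 1.85 to 2.83, adjusted p = 0.0499), or 5.06-fold, and 0.13% of all probes had a larger rise. It was the only member with an adjusted p under 0.05. That adjusted p ranged from 0.00892 to 0.323 over the 18 alternatives and was under 0.05 in 5 of them. IFI44L met the 2-fold and unadjusted p limits in all 18, with log2 fold changes between 2.00 and 2.44. The study placed IFI44L on a gene list it drew up from these samples, so it is not independent evidence for that list.

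IFI44 had processed intensities of 800 and 452 in si-Control replicates 1 and 3 and of 2513, 2521 and 1307 in si-C1GALT1-3. The spot masked on si-Control replicate 2 read 425. The normalized log2 signals were 9.29 and 9.29 against 11.07, 11.08 and 10.62, with no overlap. The log2 fold change was 1.63 ± 0.21 (SE, n = 2 against 3, adjusted p = 0.101), or 3.10-fold. With the masked spot kept, it was 1.66 ± 0.19 (SE). The 118 other spots within 5 lines and columns of it on that array had a median log2 deviation of -0.94, and the IFI44 spot itself one of -0.50. IFI44 rose under all 18 alternatives, between 1.42 and 1.77.

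EPSTI1 had processed intensities of 5344 and 2505 in si-Control replicates 1 and 3 and of 9066, 8444 and 6105 in si-C1GALT1-3. The spot masked on si-Control replicate 2 read 9 and was not well above background, and only 22.6% of the spots within 5 lines and columns of it were. The normalized log2 signals were 12.11 and 11.66 against 12.97, 12.91 and 12.79. The log2 fold change was 1.01 ± 0.20 (SE, n = 2 against 3, adjusted p = 0.168), or 2.01-fold. With the masked spot kept it was 3.67 ± 2.26 (SE) and missed the p limit, so that spot alone moved the estimate by more than any other setting. With the replicate number as a block it was 1.00 and missed both limits. Under 11 of the 18 alternatives EPSTI1 missed a limit, among them leaving out si-Control replicate 3 (0.78) or si-C1GALT1-3 replicate 1 (0.97), 2 (1.01) or 3 (1.05).

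IFI6, which is also known as G1P3, had processed intensities of 86094, 50847 and 42400 in si-Control and 113146, 100980 and 91210 in si-C1GALT1-3. The normalized log2 signals were 15.99, 15.68 and 15.75 against 16.48, 16.55 and 16.71. The groups did not overlap after normalization. The log2 fold change was 0.77 ± 0.15 (SE, adjusted p = 0.14), or 1.71-fold, which met the p limit, and 7.1% of probes had a larger rise. Under the 18 alternatives its log2 fold change lay between 0.70 and 0.88 and reached 2-fold in 0 of them. Its unadjusted p by limma reached 0.0479 without normalization between arrays, so the p limit was not met in every setting.

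**Figure D2:**
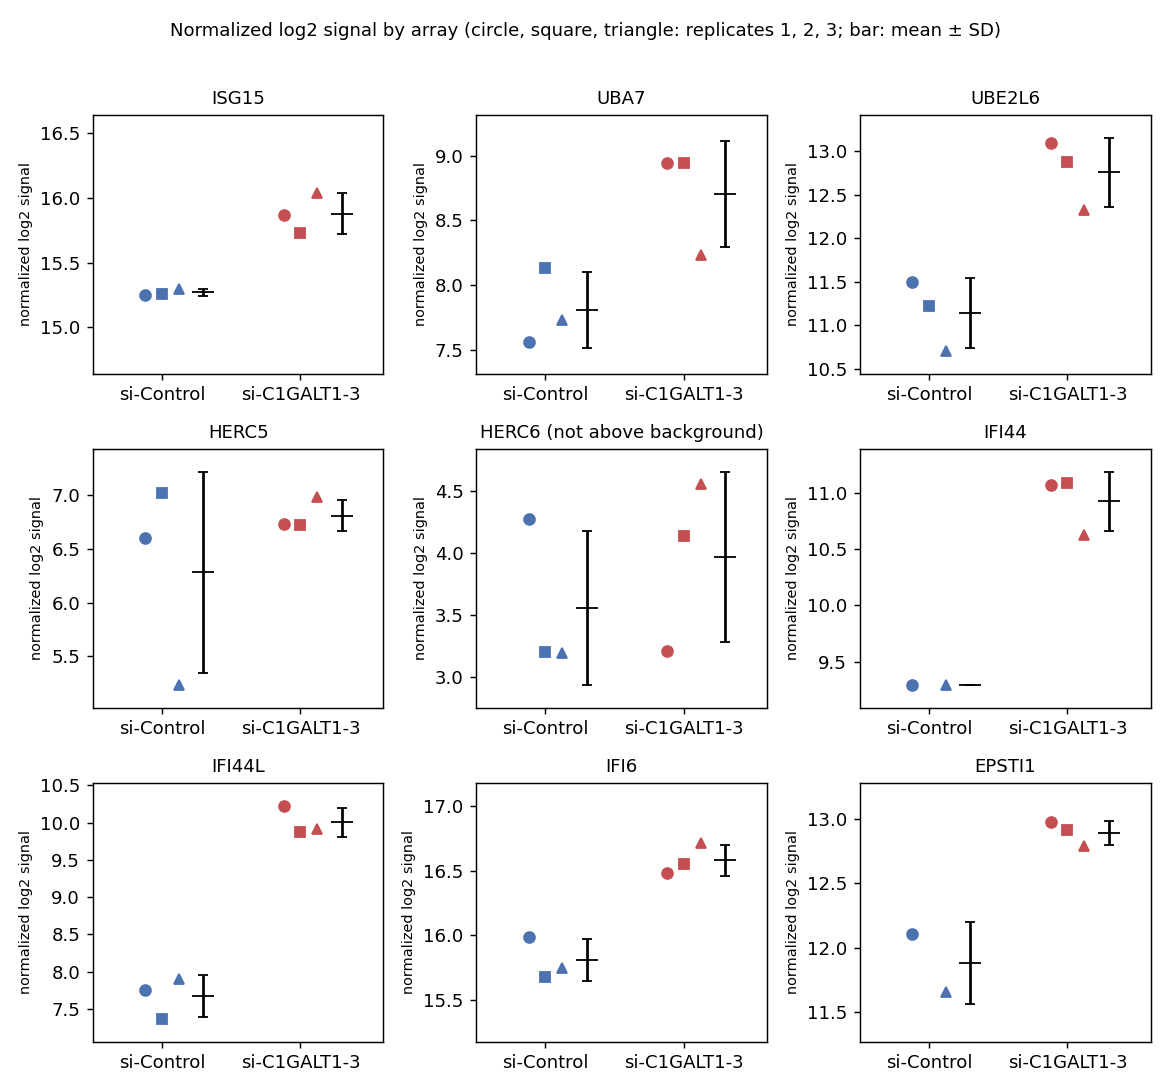
Normalized log2 signal of each member on each array, with points for the si-Control (blue) and si-C1GALT1-3 (red) arrays and bars for the group mean ± SD (n = 3, or 2 in si-Control for IFI44 and EPSTI1). The groups are apart for ISG15, UBA7, UBE2L6, IFI44, IFI44L, IFI6 and EPSTI1, and overlap for HERC5, while HERC6 was not well above background. Levels of different genes come from different probes and cannot be compared.

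Of the 9 members with a probe, 4 passed both limits and all 4 were higher, namely UBE2L6, IFI44, IFI44L and EPSTI1, beside 1.65% of all probes. Non-overlapping groups with si-C1GALT1-3 higher were found for 7 of the 9, beside 11.0% of all probes. IFI44 and EPSTI1 are among the 7 with only 2 si-Control arrays measured, where groups come apart more easily. The median log2 fold change of the 9 was 0.90, with HERC6 included though not well above background, and that of all probes was -0.005. Well above background on every measured array of at least 1 group were 8 of the 9. Of the 4 called members, IFI44, IFI44L and EPSTI1 hold the response element core in their windows and UBE2L6 does not. The windows of ISG15 and IFI6, which were higher but under 2-fold, hold it too. A link between the core and the differences was not tested.

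**Figure D3:**
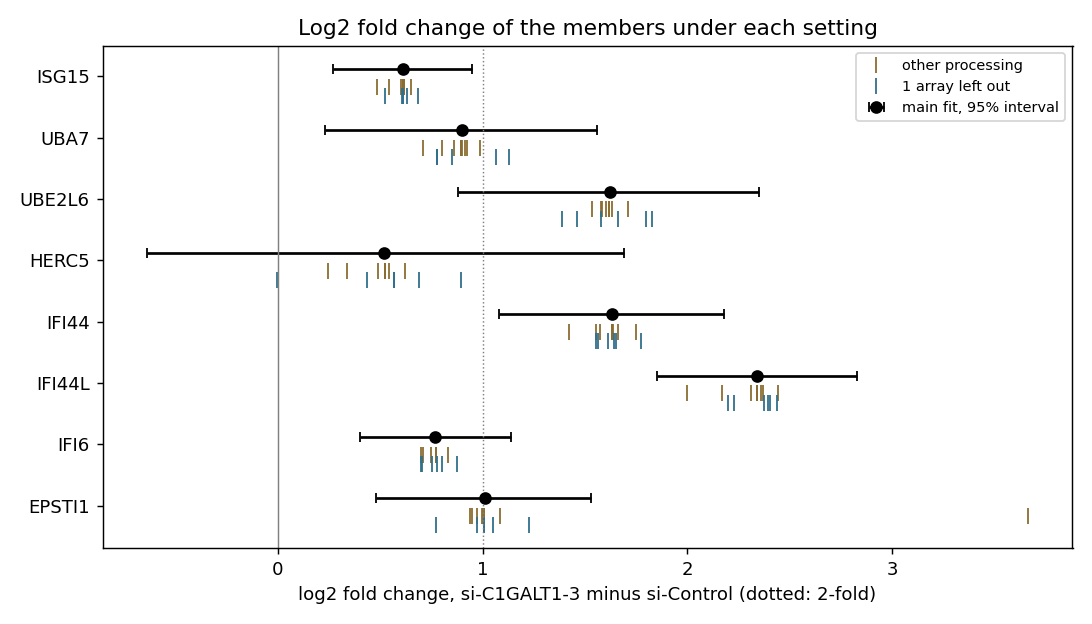
Log2 fold change of each member, si-C1GALT1-3 minus si-Control, with its 95% interval (black), under other processing (brown) and with 1 array left out (blue), and with the 2-fold limit dotted. The estimates of IFI44L, IFI44 and UBE2L6 are past 2-fold in every setting and those of ISG15 and IFI6 under it, though the intervals of UBE2L6 and IFI6 cross the limit. EPSTI1 lies between 0.78 and 1.23, apart from 3.67 with its masked spot kept.

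The other genes of the ISG15 cycle, with removing enzymes, further ligases and the receptor of extracellular ISG15, numbered 11, of which 10 had a probe. Of these 10, 0 passed both limits in either direction by limma, and 3 had an unadjusted p under 0.05, beside 13.8% of all probes. ITGB2 was not well above background throughout. The median log2 fold change was 0.11. USP18, the protease that removes ISG15, was 0.84 ± 0.15 higher on the log2 scale (SE, adjusted p = 0.129), and its groups did not overlap. USP14, a deubiquitinase that also reacts with ISG15, was 0.89 ± 0.20 higher on that scale (SE, adjusted p = 0.165). ITGAL, a chain of the integrin that serves as the receptor, had a log2 fold change of -0.77 ± 0.18 (SE, adjusted p = 0.175). The ligases TRIM25 and ARIH1 had log2 fold changes of -0.21 and -0.34 with overlapping groups.

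The relatives of the members in the ubiquitin system and in the IFI27 family give values to set beside them. Of 9 relatives, 0 were called higher and 1 lower, beside 1.65% and 0.991% of all probes. An unadjusted p under 0.05 by limma was found for 4 of the 9, beside 13.8% of all probes. Groups were apart, with si-C1GALT1-3 higher, for 3 of the 9, beside 11.0% of all probes. Of these, HERC2 had only 2 si-Control arrays measured. The median log2 fold change was 0.21. With the series table, and without si-Control replicate 3, 1 relative was called higher. UBA6, an activating enzyme for ubiquitin and FAT10, was well above background on 2 of 3 si-C1GALT1-3 arrays. It fell by 1.79 on the log2 scale, with an SE of 0.43 (adjusted p = 0.19). That call was lost under several settings, among them without any one of si-Control replicates 1, 2 and 3 or without si-C1GALT1-3 replicate 1. UBA1, the ubiquitin counterpart of UBA7, had a log2 fold change of 0.03 ± 0.24 (SE), beside 0.90 for UBA7. UBE2L3, the relative of UBE2L6 that carries ubiquitin, had 0.29 ± 0.26 (SE), beside 1.62 for UBE2L6. The differences between these pairs were not tested. IFI27L1 and IFI27L2, which are related to IFI27, had -0.57 and 0.76, and HERC3 had 0.97, all short of the call. IFI27L1 was measured on 2 si-Control arrays.

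The interferon transcription factors given here had differences under 2-fold. Of 5 such factors, 0 passed both limits by limma, 3 had an unadjusted p under 0.05 (beside 13.8% of all probes), and 4 had groups that did not overlap with si-C1GALT1-3 higher, beside 11.0% of all probes. STAT2 and IRF9, which act at the response element, had log2 fold changes of 0.86 ± 0.30 and 0.77 ± 0.24 (SE). STAT2 and IRF1 are on a list the study drew up from these samples, so they are not independent evidence for that list. IRF1, IRF7 and IRF2 had log2 fold changes of 0.87, 0.66 and 0.51. The groups of IRF2 overlapped, and those of IRF7 were apart with only 2 si-Control arrays measured. The median of the 5 was 0.77. Over 17 alternatives the median ran from 0.60, without si-Control replicate 3, to 0.89, without si-Control replicate 2. In the latter setting 2 of the 5 passed both limits, beside 1023 probes called higher. In the other settings 0 of the 5 did.

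Among 50 other interferon-stimulated genes, 49 had a probe, 20 rose (beside 1.65% of all probes) and 0 fell, and the median log2 fold change was 0.84. Groups did not overlap, with si-C1GALT1-3 higher, for 31 of the 49, beside 11.0% of all probes. Some of the 31 had only 2 si-Control arrays measured. OAS2, which makes the oligoadenylates that activate RNase L, had the largest rise of the list at 2.63 ± 0.23 (SE, adjusted p = 0.0499). IFI35, an interferon-induced partner of NMI, rose by 2.60 ± 0.27 (SE, adjusted p = 0.0688). BST2, the tetherin that holds budding virus at the cell surface, rose by 2.47 ± 0.21 (SE, adjusted p = 0.0499). The count was 13 without the mask or without si-Control replicate 1. OAS2, BST2 and several others of the 20 called genes are on lists the study drew up from these samples. They are therefore not independent evidence for those lists. The study also measured OAS2 and BST2 by quantitative RT-PCR, which is not used here.

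**Figure D4:**
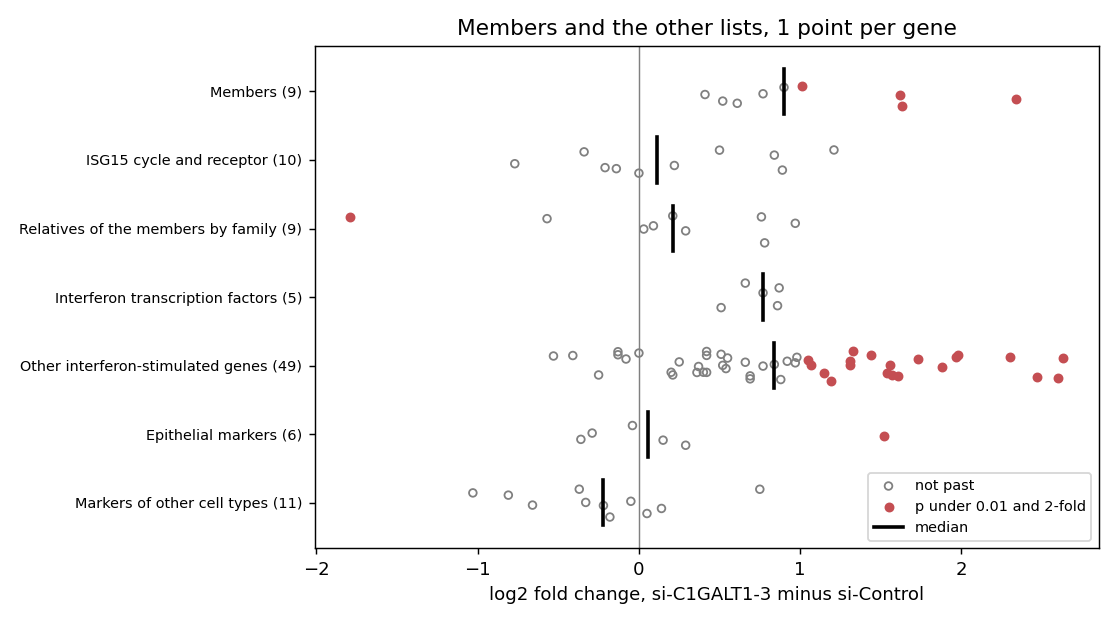
Log2 fold changes, si-C1GALT1-3 minus si-Control, of the members and of the genes of each list, 1 point per gene with the median as a line. The other interferon-stimulated genes reach from -0.53 to 2.63 with a median of 0.84, and the other genes of the ISG15 cycle have a median of 0.11.

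The samples were set against markers of the labelled cell type. All 6 epithelial markers were well above background on every array, and their summed intensity ranged from 479608 to 542888 in si-Control and from 449123 to 522031 in si-C1GALT1-3. CDH17, an intestinal-type cadherin, rose by 1.52 ± 0.39 (SE, adjusted p = 0.209), and it is also on a list of the study. That call was lost without si-Control replicate 1 or 3, without any one si-C1GALT1-3 array, without the mask, with the methods' t-test and with the series table. Of 11 markers of leukocytes, endothelium and fibroblasts with a probe, 0 passed the call in either direction, with a median log2 fold change of -0.22. PDGFRB and VWF had log2 fold changes of -0.81 and -1.03 with groups that did not overlap, each against 2 si-Control arrays, and with dim probes left out 1 marker was called lower. Summed over the 8 markers measured on all 6 arrays, the intensity was 15087 to 40510 in si-Control and 16625 to 26127 in si-C1GALT1-3, with overlapping ranges. Well above background were 9, 7 and 9 of the 11, 8 and 11 markers measured on si-Control replicates 1, 2 and 3, and 9, 10 and 9 of 11 on the si-C1GALT1-3 arrays. The leukocyte marker PTPRC was so on all 6 arrays, with normalized log2 means of 13.97 and 13.64, and COL1A2 was so on none. PTPRC is also on a list of the study, though the probe read here was not called, with a log2 fold change of -0.33. The part of these markers in the differences of the members was not tested.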

How the data were processed

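Total RNA of AGS cells was hybridized to one-colour Agilent arrays, 3 si-Control and 3 si-C1GALT1-3. The authors deposited the output of Agilent Feature Extraction version 10.5.1.1, per the labels, with a processed intensity per spot that the software had corrected for background, before normalization between arrays. A series table deposited by the authors, with intensity after background subtraction, served as an alternative. Log2 values of the deposited processed intensity were quantile normalized after control spots, spots marked as outliers (100 to 424 per array) and the low block of si-Control replicate 2 had been left out. Spots of a probe were averaged, and limma version 3.58.1 in R version 4.3.3 (lmFit, eBayes, two-sided) was fitted over all probes, with Benjamini-Hochberg adjustment. A gene with several probes was read from the one with the highest mean signal. With 3 arrays a group, precision is limited by their number. The test was checked on simulated data.

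According to the scanner files, replicates of the same number shared a slide. The correlations of their deviations from the group means were 0.200, 0.214 and 0.318. The main fit did not pair them, and the replicate block was fitted as an alternative. With that block the adjusted p of IFI44L was 0.18. si-Control and si-C1GALT1-3 arrays always held different positions on the slide, so position and treatment cannot be told apart. Named are the 10 members, C1GALT1, every called gene of a list (the 3 largest rises and falls for over 6) and, for ISG15 and IFI44L, the 5 genes most alike. The transcription factors, USP18, USP14, ITGAL, TRIM25, ARIH1, ITGB2, PDGFRB, VWF, PTPRC, COL1A2, and the relatives other than UBA6 were named after their values were seen. The members and lists were chosen with earlier results of these data known. Promoters came from RefSeq, GRCh38.p14, and no array coordinates were used. Alternatives were no or a wider mask, other normalization, dim probes left out, the replicate block, a trend and robust prior, the methods' t-test, marked spots kept, normexp on the median spot signal (offset 50), the series table (values under 10 set to 10), the median over probes, and leaving out each array. The methods' t-test is Student's t-test, which the study's methods name for comparing groups, while they name limma for the arrays. Protein sequences were not used here, and 1 gene of the transcription factor list is not reported here.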

Additional observations from a re-analysis of the deposited data

How the results depend on the processing

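Between 3 and 4 members passed the call under each of the 18 alternatives, against 4. UBE2L6, IFI44 and IFI44L were among them each time, and ISG15, IFI6 and HERC5 never. EPSTI1 lost its call in 11 alternatives, and without si-C1GALT1-3 replicate 3 UBA7 took its place. The fold change of HERC5 ranged from -0.0011 to 0.8952 on the log2 scale when 1 array was left out, at the lower end without si-Control replicate 3. Of all probes, 1538 were called, against 896 with the methods' t-test and 915 with normexp. The cause was not tested. The count ranged from 1126 to 1781 when 1 array was left out. With the replicate block 1604 probes were called and the only member to lose its call was EPSTI1. The share of called probes that were higher was 62.5%, against 40.2% without the mask, 72.6% without normalization, 54.3% with normexp and 52.2% without si-Control replicate 1. The 75th percentile moved the median of all probes to -0.107, from -0.005, and there UBE2L6, IFI44 and IFI44L were called. An adjusted p under 0.05 was reached by 49 probes, against 545 with dim probes left out, 429 with normexp, 74 with the series table, 31 at the 75th percentile and 2 with the methods' t-test. It was reached by 0 probes without the mask, without normalization, with the replicate block, with a trend and robust prior, with marked spots kept and without any one array, beside 8028 at an unadjusted p under 0.05 by limma. HERC6 and HERC5 were limited by their signal over background.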

Other observations

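Genes whose normalized log2 signal ran most like that of a member over the 6 arrays were sought among 14158 genes that were well above background on every array. For ISG15 these were S100A2, a calcium-binding protein (Pearson r = 0.999), IFNGR1, a chain of the interferon gamma receptor (0.998), SCARNA14 (0.997), APOD (0.997) and KDM4B (0.994). For IFI44L they were SPTLC3, a subunit of the enzyme that starts sphingolipid synthesis (0.996), PYY, a gut peptide hormone (0.996), DTX3 (0.994), SH3BP5 (0.994) and ADAMTS13 (0.994). None of these 10 is on the list of other interferon-stimulated genes. The arrays fall into 2 groups, so a gene that differs between the groups correlates with any other that does, and these values are a description. Their log2 fold changes were all positive and ran from 0.33 for ADAMTS13 to 2.74 for APOD.

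Among the members measured on all 6 arrays, the normalized log2 signals of ISG15, IFI6 and IFI44L correlated at 0.95 in each of the 3 pairs, and UBE2L6 with the other members at 0.82 (ISG15), 0.88 (IFI6), 0.88 (UBA7) and 0.91 (IFI44L). UBA7 correlated at 0.67 with IFI6, 0.69 with ISG15 and 0.81 with IFI44L. These are Pearson correlations over 6 arrays in 2 groups, given as a description. HERC5, not well above background on 1 array, is left out.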
